A study of Mus musculus with 12 samples.

Results

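The promoters of 10 origin licensing genes were examined for YY1 peaks in bone marrow cells of wild-type and Xist-deleted mice. The genes were Mcm2, Mcm3, Mcm4, Mcm5, Mcm6, Mcm7, Cdc6, Cdt1, Orc1 and Gmnn, taken by name from GENCODE M21 on the mouse build mm10 (GRCm38), where they are 10 of 21938 protein-coding genes on the chromosomes. A peak was assigned to a gene when any base of it lay within 3 kb of any of the gene's transcript starts, and 51 of the 53674 peaks in the 4 YY1 lists met this rule.

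YY1 ChIP-seq was run on lineage-negative (Lin-) bone marrow cells, the fraction left after cells bearing antigens of mature blood lineages are removed. The cells came from 3-month-old female mice of the 129Sv4/Jae x B6 background, either wild-type (WT) or with Xist deleted in blood cells by crossing a floxed Xist allele to Vav-iCre (XistΔ/Δ). In that cross the Vav1 regulatory sequences drive the Cre recombinase in haematopoietic cells, so that deletion is directed to blood, and whether WT animals carried Cre is not given in the labels. There were 2 libraries of each genotype, and the other 8 of the series' 12 libraries, which profile histone marks, were not used. YY1 is a zinc-finger protein that binds promoters and enhancers and also holds Xist RNA on the inactive X chromosome.

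Origin licensing is the loading of the replicative helicase onto DNA before S phase. The origin recognition complex, of which Orc1 is a subunit, binds DNA and recruits Cdc6 and Cdt1, which load the ring of Mcm2 to Mcm7. Geminin, encoded by Gmnn, binds Cdt1 and blocks further loading once replication has begun, so that each origin fires no more than once in a cell cycle. Many of these genes are known targets of E2F factors, which switch on genes of the G1 to S phase passage, and dividing marrow progenitors express them.

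The sequences below show how the promoters of the MCM genes differ in letters that match YY1 and E2F binding sequences. Each is read from 200 bases before to 30 bases after the RefSeq start, 5′ to 3′ in the direction of the gene, from RefSeq on GRCm38.p6. Capitals mark YY1 letters (ATGGCGG or AANATGGC) and E2F letters (TTTCCCGC, TTTGGCGC, TTTCGCGC or TTTGCCGC) on either strand, and runs of more than 8 capitals are overlapping matches: of both YY1 strings in the first run of Mcm5, and of E2F letters on opposite strands in its second run and in the first run of Mcm6.
Mcm2 (chr6:88898751-88898980, minus strand): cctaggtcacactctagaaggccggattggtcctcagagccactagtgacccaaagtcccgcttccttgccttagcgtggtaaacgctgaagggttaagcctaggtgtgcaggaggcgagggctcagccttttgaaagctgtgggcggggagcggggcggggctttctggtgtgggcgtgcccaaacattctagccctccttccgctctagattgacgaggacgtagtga
Mcm3 (chr1:20820283-20820512, minus strand): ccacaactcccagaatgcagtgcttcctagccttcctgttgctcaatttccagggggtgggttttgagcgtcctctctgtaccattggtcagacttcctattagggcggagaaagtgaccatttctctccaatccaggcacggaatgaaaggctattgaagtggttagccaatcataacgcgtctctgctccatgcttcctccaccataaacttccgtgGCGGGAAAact
Mcm5 (chr8:75109309-75109538, plus strand): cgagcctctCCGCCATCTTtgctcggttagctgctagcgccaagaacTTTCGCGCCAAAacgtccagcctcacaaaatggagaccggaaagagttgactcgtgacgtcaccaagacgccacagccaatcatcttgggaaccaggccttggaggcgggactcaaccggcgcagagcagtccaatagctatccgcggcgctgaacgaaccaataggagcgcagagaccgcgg
Mcm6 (chr1:128359676-128359905, minus strand): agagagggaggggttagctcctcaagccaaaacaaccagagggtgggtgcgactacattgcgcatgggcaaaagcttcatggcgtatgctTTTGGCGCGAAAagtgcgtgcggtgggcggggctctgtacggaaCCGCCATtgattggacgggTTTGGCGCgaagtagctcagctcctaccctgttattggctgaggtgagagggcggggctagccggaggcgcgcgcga

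Mcm5 held both YY1 strings, overlapping in a run that begins at position -191 from its start, and a pair of E2F matches beginning at -153 and -149. Mcm6 held ATGGCGG on the opposite strand at -66 and E2F letters at -110, -106 and -47. Mcm3 held E2F letters at 20 bases past its start and, beyond the printed stretch, at 39. Mcm2 held neither kind in this window.

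RefSeq promoters of 300 bases, from 250 before to 50 after a start, were at hand for 8 of the 10 genes as 9 promoters, and not for Mcm4 and Gmnn. The RefSeq starts of Mcm7 and Cdc6 lie downstream of the main GENCODE starts used for the peaks. E2F letters stood in 7 of the 9 promoters and in 7 of the 8 genes, all but Mcm2. Of all 32851 RefSeq promoters, 2.26% held them, and of 7369 promoters overlapped by a YY1 peak in all 4 libraries, 5.16% did. YY1 letters of either kind stood in 2 of the 9 promoters, against 8.62% of all promoters and 21.03% of those with a peak in all 4 libraries. The overlapping pair of YY1 strings seen in Mcm5 was present in 1.36% and 5.60% of these sets. CCAAT, the string bound by NF-Y, stood in 7 of 9 promoters (37.4% and 37.5% of the sets), and GGGCGG, the string bound by Sp1, in 7 of 9 (35.7% and 72.0%). TTTGAA, the cell cycle homology region found in genes of late cell cycle phases, was present in Mcm2 alone of the 9 (17.9% and 10.6%). Letters that match are a description and not a bound site.

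**Figure D1:**
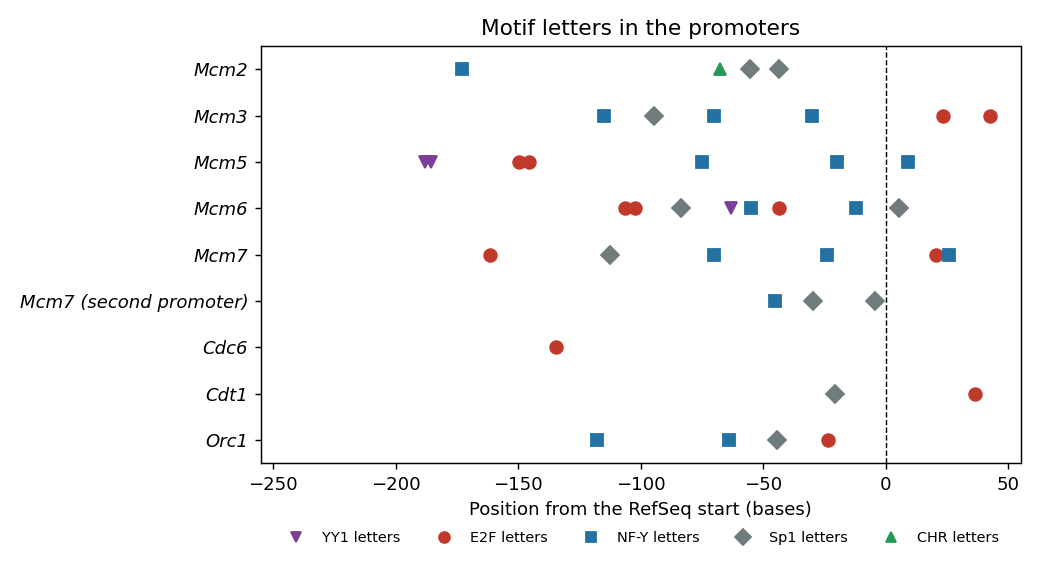
Positions of the motif letters in the 9 RefSeq promoters of the licensing genes, in bases from the RefSeq start (dashed line), with a symbol at the middle of each match on either strand. E2F letters (circles) appear in every row but Mcm2 and the second Mcm7 promoter, and YY1 letters (triangles pointing down) only in Mcm5 and Mcm6 among these rows.

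The median GC content of the 9 promoters was 57.3% (range 48.7 to 66.7%), against 52.7% over all promoters and 63.3% over those with a peak in all 4 libraries. The ratio of observed to expected CpG had a median of 0.935 (0.452 to 1.00), against 0.384 and 0.850. Mcm3 was lowest on both measures.

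The 4 libraries differed in depth mainly by replicate number. Within a replicate number, the XistΔ/Δ library was the shallower in replicate 1 and the deeper in replicate 2. WT replicate 1 and XistΔ/Δ replicate 1 held 24876456 and 23141326 tags (reads kept by the authors and counted in the file headers) and 9553 and 10075 peaks, while WT replicate 2 and XistΔ/Δ replicate 2 held 50004037 and 59537344 tags and 15933 and 18113 peaks. The smallest tag count that made a peak was 22 in both shallow libraries and 33 and 37 in the deep ones, and peaks held 3.58 to 4.88% of tags. As a check of the labels, a peak lay on the Xist start in both WT libraries (3083 and 3222 bp wide) and in neither XistΔ/Δ library. A peak list does not measure expression, so the Lin- identity of the cells could be described only through promoter peaks. Among stem and progenitor genes, Myb and Meis1 had a peak in all 4 libraries, Kit in 2, and Cd34 and Gata2 in 1 each. Of 6 genes of the depleted antigens, Ptprc had a peak in all 4, Itgam in 3, and Ly6g, Cd3e, Cd8a and Cd4 in none.

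The first question was whether YY1 occupied the promoters of the licensing genes in each genotype. In WT replicate 1, 9 of the 10 genes had a peak, against 39.4% of all protein-coding genes. In WT replicate 2 it was 10 of 10, against 47.6%. In XistΔ/Δ replicate 1 it was 8 of 10, against 39.3%, and in XistΔ/Δ replicate 2 it was 10 of 10, against 48.9%. Thus 8 genes had a peak in all 4 libraries, where 35.7% of all genes did, and no licensing gene lacked a peak in every library, where 49.8% of all genes lacked one. The exceptions were Cdc6, with peaks in both replicate 2 libraries only (4.33% of all genes), and Mcm6, with a peak in every library but XistΔ/Δ replicate 1 (3.19% of all genes). Both gaps fell in shallow libraries. In pooled cells, fewer bound cells and less binding per cell cannot be told apart.

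**Figure D2:**
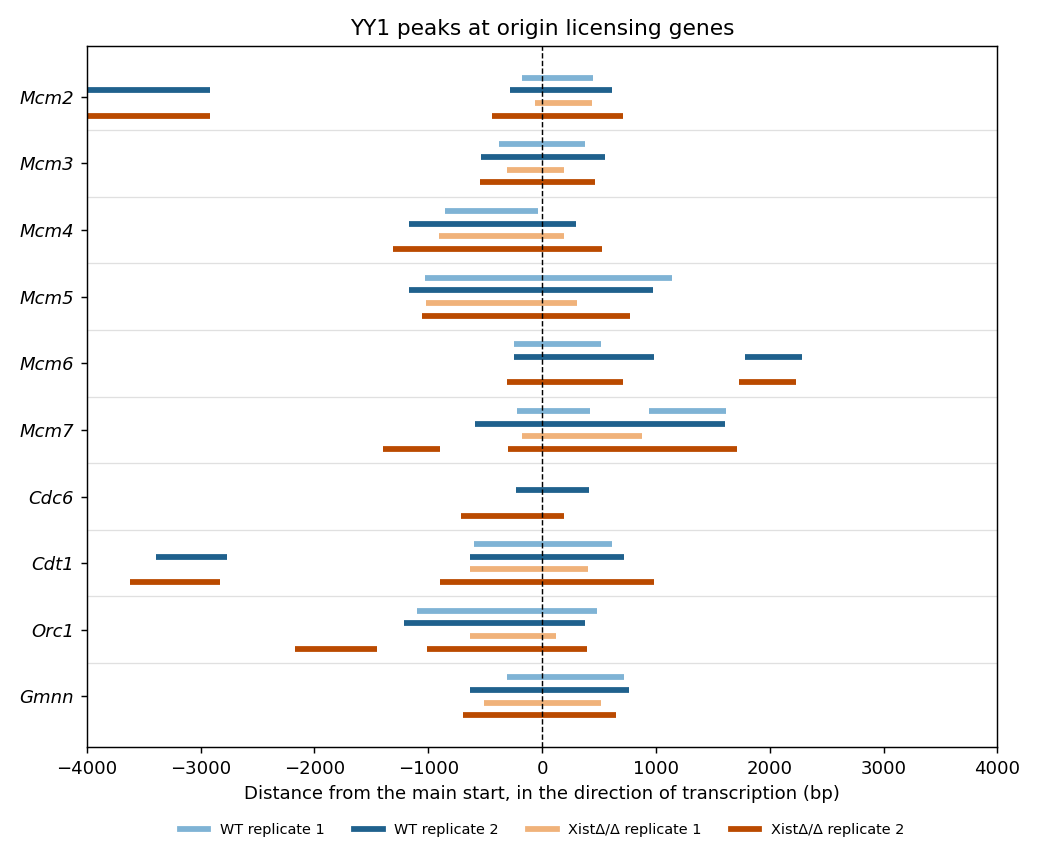
Extent of each YY1 peak around the main start of the 10 licensing genes (start of the first protein-coding transcript of the GENCODE basic set), in bp along the direction of transcription. Each bar is a peak in 1 library, and peaks beyond 4000 bp are not drawn. Bars cross or lie beside the start line in all 4 libraries for every gene but Mcm6, which lacks XistΔ/Δ replicate 1, and Cdc6, which lacks both replicate 1 libraries.

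Orc1 (ENSMUSG00000028587.18, chr4:108579423-108614833, plus strand), the largest subunit of the origin recognition complex, shares its promoter with Prpf38a on the opposite strand, whose start lies 87 bp from the nearest Orc1 start. The Orc1 peak was 1583 and 1596 bp wide in WT replicates 1 and 2, and 753 and 1405 bp in XistΔ/Δ replicates 1 and 2. Both XistΔ/Δ widths lay below both WT widths, and the XistΔ/Δ replicate 1 peak was less than all others by a wide margin. The peak centre lay at -417 to -254 bp from the main Orc1 start, that is upstream of it,, in an exon of Prpf38a, and 136 to 299 bp from the Prpf38a start. The main Orc1 start was nevertheless within all 4 peaks, whose common stretch was 753 bp long (chr4:108578824-108579576). Peaks here cannot be assigned to Orc1 or Prpf38a separately. In XistΔ/Δ replicate 2 an added peak of 715 bp lay in an intron of Prpf38a.

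Cdc6 (ENSMUSG00000017499.15, chr11:98907801-98923940, plus strand), the ATPase that joins the origin recognition complex to load the helicase, had the weakest record of the 10. No peak was listed in WT replicate 1 or XistΔ/Δ replicate 1. The peak over its main start was 643 bp wide in WT replicate 2 and 906 bp in XistΔ/Δ replicate 2, with its centre at 91 and -263 bp from the start. A further peak lay in a Cdc6 intron in the same libraries, 501 bp wide in WT replicate 2 (chr11:98918110-98918610) and 1071 bp in XistΔ/Δ replicate 2 (chr11:98917703-98918773). It was counted because a shorter Cdc6 transcript starts 1856 and 1693 bp from its edge, and in XistΔ/Δ replicate 2 it was the wider of the pair. The start peak stood at place 11460 of 15933 and 9758 of 18113 in these lists.

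Cdt1 (ENSMUSG00000006585.3, chr8:122568015-122573554, plus strand), the partner that brings the MCM ring to the origin, had a start peak in every library. Its width was 1214 and 1357 bp in WT replicates 1 and 2, and 1038 and 1882 bp in the XistΔ/Δ replicates. The latter widths lay on either side of the WT widths. The centre stayed at -118 to 41 bp from the main start in all 4 libraries. Both replicate 2 libraries held another peak further upstream, of 627 and 795 bp, with its nearest edge 2768 and 2829 bp from the start, in an intron of the gene model Gm20388 that overlaps Cdt1.

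Mcm2 (ENSMUSG00000002870.8, chr6:88883474-88898780, minus strand), the MCM subunit that also carries a histone-binding tail, had a start peak of 627 and 892 bp in the WT libraries and of 501 and 1156 bp in the deleted ones. The genotypes overlapped, and in each the deeper library had the wider peak. The centre lay 137 to 190 bp downstream of the start, in an intron. Both replicate 2 libraries also held a peak of 1123 and 1345 bp, 2918 bp upstream, whose centre was 8 and 18 bp from the start of the neighbouring gene Tpra1. These were the widest peaks within 3 kb of Mcm2 in those libraries, so the widths used for Mcm2 under the rule come partly from the Tpra1 promoter.

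Mcm3 (ENSMUSG00000041859.10, chr1:20802968-20820312, minus strand) had a single peak in each library, 758 and 1092 bp wide in WT replicates 1 and 2 and 501 and 1018 bp wide in the XistΔ/Δ replicates. The genotypes overlapped. Its centre was at -56 to 9.5 bp from the start in all 4 libraries, closer than for any other of the 8 genes with a peak in each. The XistΔ/Δ replicate 1 peak, at the most frequent width of all peaks (501 bp), stood at place 9840 of 10075 in its list.

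Mcm4 (ENSMUSG00000022673.5, chr16:15623897-15637400, minus strand) faces Prkdc, the catalytic subunit of DNA-dependent protein kinase, across 466 bp. Its peak was 815 and 1468 bp wide in the WT libraries, and 1098 and 1837 bp wide in XistΔ/Δ replicates 1 and 2. Within each replicate number the XistΔ/Δ peak was wider, while the genotypes overlapped over all 4 libraries. The centre lay at -446 to -360 bp from the Mcm4 start and 20 to 107 bp from the Prkdc start, and Mcm4 was the only one of the 10 whose main start was outside the stretch shared by its peaks (chr16:15637439-15638253). In WT replicate 1 the peak ended 39 bp short of that start. The peak belongs to the shared promoter and was nearer to Prkdc.

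Mcm5 (ENSMUSG00000005410.6, chr8:75109569-75128439, plus strand) had the widest start peak of the 10 genes in WT replicate 1 and XistΔ/Δ replicate 1. It was 2172 and 2145 bp wide in the WT libraries and 1326 and 1828 bp wide in the XistΔ/Δ libraries. Both XistΔ/Δ widths lay below both WT widths. The upstream edge lay at -1172 to -1016 bp from the main start in all 4 libraries, while the downstream edge lay 1145 and 972 bp past it in the WT libraries and 309 and 771 bp past it in the XistΔ/Δ libraries. The difference in width therefore stood on the side of the gene body.

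Mcm6 (ENSMUSG00000026355.11, chr1:128331590-128359664, minus strand) had a start peak of 764 and 1232 bp in WT and of 1019 bp in XistΔ/Δ replicate 2, and none in XistΔ/Δ replicate 1. The XistΔ/Δ width that could be measured lay between the WT widths. A peak of 501 bp lay in a Mcm6 intron in both replicate 2 libraries, with its nearest edge 1779 and 1727 bp downstream of the main start.

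Mcm7 (ENSMUSG00000029730.16, chr5:138164583-138172422, minus strand) overlaps Ap4m1 on the opposite strand, with an Ap4m1 start 160 bp from the main Mcm7 start. It carries Mir106b, Mir93 and Mir25 inside the gene. The peak over its main start was 643 and 2198 bp wide in the WT libraries, and 1054 and 2019 bp wide in XistΔ/Δ replicates 1 and 2. Its centre was nearest to an Ap4m1 start in WT replicate 2 (88 bp) and XistΔ/Δ replicate 1 (1 bp). It was nearest to a Mcm7 start in WT replicate 1 (99 bp) and XistΔ/Δ replicate 2 (100 bp). Peaks here cannot be assigned to Mcm7 or Ap4m1 separately. In WT replicate 1 a second peak of 677 bp lay further downstream (chr5:138170805-138171481), and together they spanned nearly the ground that a single peak covered in each replicate 2 library. Both replicate 2 libraries also held a peak of 2053 and 2163 bp over Cops6, counted because a Mcm7 transcript with a retained intron starts within 3 kb of it.

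Gmnn (ENSMUSG00000006715.11, chr13:24751845-24761923, minus strand), the inhibitor of licensing, had a single peak in each library, of 1034 and 1401 bp in WT and of 1024 and 1341 bp in XistΔ/Δ. At replicate numbers 1 and 2 the log2 differences were -0.01 and -0.06 (XistΔ/Δ minus WT). The main start lay inside all 4 peaks, with the centre at -25 to 207 bp from it.

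**Figure D3:**
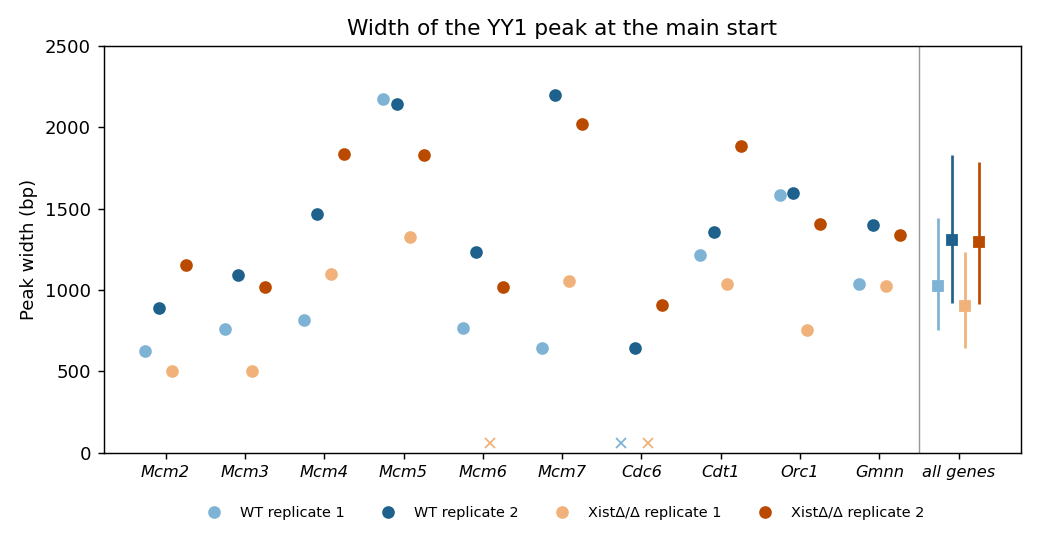
Width in bp of the peak at the main start of each licensing gene in the 4 libraries, with crosses near 0 where no peak was listed, beside the median (square) and quartiles (line) of the widest promoter peak over all genes with a peak in that library. The deeper replicate 2 libraries sit above the replicate 1 library of the same genotype for every gene measured in both but Mcm5 in WT, and the XistΔ/Δ points of Mcm5 and Orc1 sit below both of their WT points.

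Peaks were wider in the deeper replicate 2 libraries for most genes. Among the 8 genes with a peak in all 4 libraries, the widest promoter peak was wider in replicate 2 than in replicate 1 for 7 in WT and for 8 in XistΔ/Δ, and the same held for 92.2% and 97.7% of 7833 genes. Its median over the licensing genes was 815 and 1379 bp in WT replicates 1 and 2, and 1031 and 1375 bp in XistΔ/Δ, against 1022.5, 1308, 901 and 1292 bp over all genes with a peak. The licensing genes were thus of middling width, at a median percentile of 35.5, 53.9, 60.7 and 55.9 in the same order. By percentile, Mcm5 was high in every library (92.8, 84.0, 79.8 and 76.4), and Mcm3 was low (26.1, 36.9, 7.31 and 30.5).

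The second question was whether these peaks differed between the genotypes. None of the 8 genes had a widest peak that was wider in both XistΔ/Δ libraries than in both WT libraries (1.4% of 7833 genes did). Mcm5 and Orc1 had a narrower one in both (6.4% of genes did). With each width divided by the median of its library, the counts were again 0 and 2, against 9.36% and 5.08% of genes. Within both replicate numbers, 1 gene (Mcm4) was wider in XistΔ/Δ (15.1% of genes) and 4 genes (Mcm3, Mcm5, Orc1 and Gmnn) were narrower (35% of genes).

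The mean log2 width of the Mcm5 peak was lower in XistΔ/Δ by 0.47 (-0.47 ± 0.23, SE, n = 2 against 2), with geometric means of 1557 bp and 2158 bp. For Orc1 the difference was -0.63 ± 0.45 (SE), with 1029 bp and 1589 bp. The exact two-sided permutation p was 0.333 for each, the smallest that 2 against 2 libraries can give, so no difference in this design could pass 0.05. The differences were unequal between replicate numbers, at -0.71 and -0.23 for Mcm5 and -1.07 and -0.18 for Orc1 in replicates 1 and 2. For both genes the larger part thus came from the pair of shallow libraries. Without XistΔ/Δ replicate 1 the differences were -0.24 for Mcm5 and -0.18 for Orc1, and without XistΔ/Δ replicate 2 they were -0.70 and -1.08. With the widths of all peaks near its starts summed, the genotypes overlapped for Orc1 (-0.33, exact permutation p = 1). For the 6 other genes the difference ran from -0.35 ± 0.58 (Mcm3) to 0.38 ± 0.56 (Mcm4), and the exact p was 0.667 or 1. Every p adjusted by Benjamini-Hochberg over the 7833 genes was 1.

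The median log2 difference was -0.04 over the 8 licensing genes and -0.08 over all 7833 genes, of which 64.9% were below 0. In replicate 1 the medians were -0.27 and -0.16, and in replicate 2 they were -0.04 and -0.01. A tilt to narrower peaks in XistΔ/Δ was therefore present across all genes in the shallow pair. Which part of it came from depth was not tested.

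The order of peaks in each list, which the file headers do not explain, was also described. Whether that order depends on width was not tested. The Mcm5 start peak stood at places 619, 736, 498 and 646 in WT replicates 1 and 2 and XistΔ/Δ replicates 1 and 2, or 6.48, 4.62, 4.94 and 3.57% of the way down. It was the highest placed of the 10 genes in each library, in XistΔ/Δ as in WT. Orc1 came at 16.6 and 13.6% in WT and at 25.1 and 14.5% in XistΔ/Δ. Mcm4, Cdt1 and Gmnn ranged from 8.98 to 35.2%, so that their ranges overlapped with those of Orc1. Mcm2, Mcm3, Mcm6 and Cdc6 stood 30.9% or further down in each library where they had a peak, and Mcm7 ranged from 17.1 to 75.6%.

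**Figure D4:**
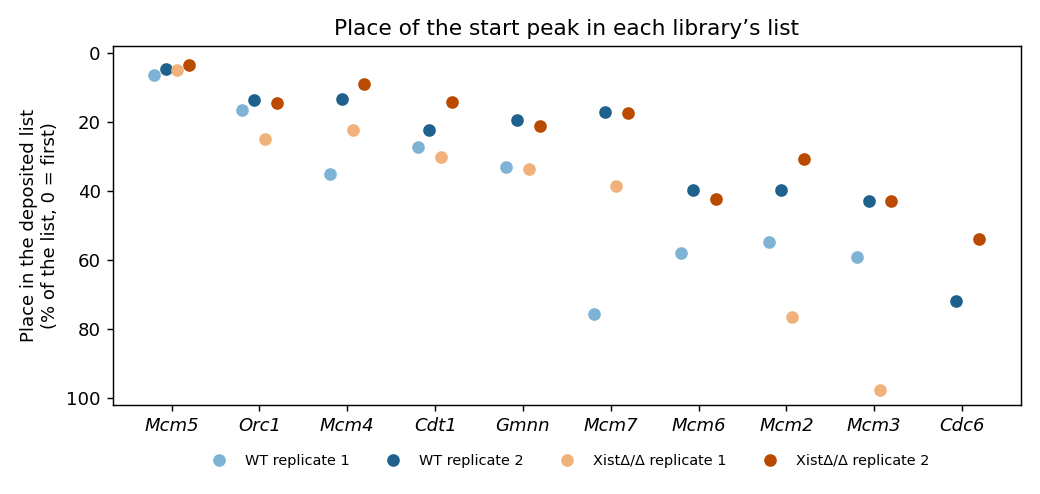
Place of the start peak of each licensing gene in the deposited list of each library, as a percentage of the list (0 is the first entry, at the top), with genes ordered by their median. Mcm5 lies within the first 6.48% in all 4 libraries, and Mcm3 in XistΔ/Δ replicate 1 lies near the end at 97.7%.

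The widest peak had its centre within 500 bp of a start of the gene in all 4 libraries for 6 of the 8 genes with a peak in each (Mcm3, Mcm4, Mcm5, Cdt1, Orc1 and Gmnn). Of all 7833 genes 80.5% met this, a share near that of the licensing genes. Mcm2 missed it through the Tpra1 peak in both replicate 2 libraries, and Mcm7 through the Cops6 peak in XistΔ/Δ replicate 2. At the main start itself, only Mcm6 and Cdc6 of the 10 genes lacked a peak in any library.

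A window of 300 bases around the median centre of each start peak was then searched for the same letters, since several peaks lay to a side of the RefSeq promoter. YY1 letters of either kind stood in 6 of the 10 windows (Mcm2, Mcm3, Mcm4, Mcm5, Mcm6 and Orc1), against 23.0% of 6845 windows at promoter peaks present in all 4 libraries. The 2 sets are not fully alike, for any of the letters. Mcm6 and Cdc6 are among the 10 though they lacked a peak in some libraries. The 6845 windows were centred by the widest peak of each library, and the 10 by the start peak. The Mcm4 window was centred at -413 bp from the main Mcm4 start, which it did not reach. It lay by the start of Prkdc, 466 bp from that of Mcm4. Its match is not printed below, as no RefSeq promoter was at hand for Mcm4. ATGGCGG alone stood in 5 windows, against 15.5%. The matches of 5 of these genes are printed with 9 bases on either side, on the strand that reads ATGGCGG or AANATGGC, from the GRCm38 genome with the YY1 letters in capitals, to show where under the peak they lie.
Mcm2 (chr6:88898635-88898659, minus strand): agcgcagacATGGCGGtgaggaatg
Mcm3 (chr1:20820193-20820217, minus strand): agctgcgacATGGCGGgcacagtag
Mcm5 (chr8:75109309-75109336, minus strand): aaccgagcaAAGATGGCGGagaggctcg
Mcm6 (chr1:128359555-128359579, plus strand): gcgaggtccATGGCGGcgccgagag
Orc1 (chr4:108579101-108579126, minus strand): aagagttctAAAATGGCgaaccgtac

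In Mcm2 and Mcm3 the ATG of these letters was the annotated start codon, 130 and 104 bases past the main start, on the coding strand. In Mcm6 the match lay on the strand opposite to the gene, 94 to 100 bases past the main start. Only the ATG of the letters themselves was compared with start codons. An overlap with a codon read on the other strand was therefore not checked. Read on the strand of the gene, the printed Mcm6 bases also hold an ATG that overlaps the match. That ATG was not compared with start codons, so Mcm6 cannot be set apart from Mcm2 and Mcm3 here. In Mcm5 the match was the longer run already seen in its promoter, -251 to -242 bases from the main start. In Orc1 it lay -344 to -337 bases from the main start, on the Prpf38a side of the shared promoter. Mcm5, with both strings overlapping (4.35% of the 6845 windows), was also the gene placed highest in each list. Among the other genes the places were mixed. Of those with ATGGCGG alone, Mcm4 stood at 8.98 to 35.2%, Mcm6 at 39.8 to 58.1%, and Mcm2 and Mcm3 at 30.9% or further down. Orc1, with AANATGGC alone, stood at 13.6 to 25.1%. Of those with no YY1 letters, Cdt1 and Gmnn stood above Mcm2 and Mcm3 in each list. Mcm7 ranged from 17.1 to 75.6%, and Cdc6 stood at 71.9 and 53.9% in WT and XistΔ/Δ replicate 2. Whether letters and places go together was not tested.

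E2F letters stood in 6 of the 10 windows (Mcm2, Mcm3, Mcm5, Mcm7, Cdc6 and Cdt1), against 4.24% of the 6845. CCAAT stood in 6, against 25.5%, GGGCGG in 6, against 67.1%, and TTTGAA in Gmnn alone, against 7.52%. Of the 10 windows, Mcm2, Mcm3 and Mcm5 held YY1 and E2F letters together.

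Other genes of DNA replication were described by the same rule. Of 18 other origin genes (the rest of the origin recognition complex and the factors that turn a loaded helicase into a fork), 15 had a peak in all 4 libraries and none lacked one throughout. Gins3 had none in XistΔ/Δ replicate 1, and Gins4 and Cdc7, the kinase that starts firing, had none in WT replicate 1. Mcmbp, a binding partner of the MCM proteins, had wider peaks than any licensing gene in each library (3384 and 2958 bp in WT, 2465 and 2875 bp in XistΔ/Δ).

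Of 24 replication fork genes, 17 had a peak in all 4 libraries. Pola2, Prim1, Prim2 and Pold2, subunits of the priming and lagging-strand polymerases, had peaks in both replicate 2 libraries only, as Cdc6 did. Rfc3, Rfc5 and Clspn lacked a peak in 1 shallow library each. Of 14 licensing regulators (E2F factors, cyclins, their kinases and ubiquitin ligase parts), 13 had a peak in all 4, and Cdk1 lacked one in XistΔ/Δ replicate 1. Of the 15, 17 and 13 genes with a peak in all 4 libraries, 0 in each list were wider in both XistΔ/Δ than in both WT libraries. In each list 1 was narrower. Over all 7833 genes the shares were 1.4% wider and 6.4% narrower, so these counts lie near the share of all genes.

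**Figure D5:**
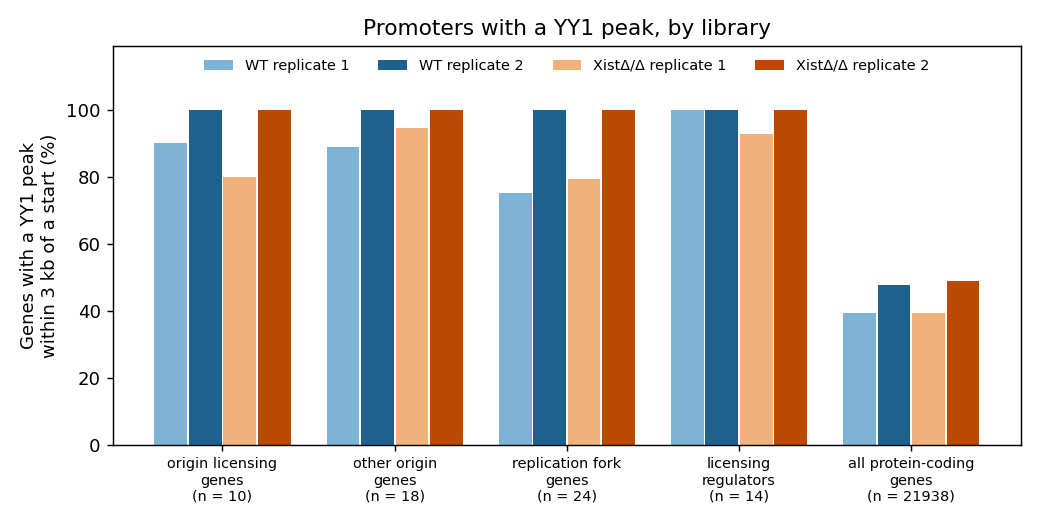
Share of genes with a YY1 peak within 3 kb of a transcript start, in percent, for the licensing genes, 3 other lists of replication genes and all protein-coding genes, with a bar for each library. Every gene of the 4 lists has a peak in both replicate 2 libraries, and the missing peaks fall in the replicate 1 libraries.

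The genes whose profile of width percentiles over the 4 libraries came closest to the median of the licensing genes, out of 7825 others with a peak in all 4, were Rnf216, Pold3 and Actr1a. Their summed absolute percentile differences were 6.76, 8.30 and 9.94. This likeness rests on 4 libraries and is a description only.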

How the data were processed

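YY1 was profiled by ChIP-seq of MNase-digested chromatin. Per the labels and the study's methods, the authors trimmed reads with Trim Galore, aligned them to mm10 with Bowtie2 2.3.5.1, removed alignments with mapping quality under 30 (SAMtools 1.10) and duplicates, and called peaks in each library separately with HOMER, at a false discovery rate of 0.001 and 4-fold over the local signal, with no input library named. The submitters' processing notes list HOMER 4.9.1, and the study's methods give no version for peak calling and a later one for the motif search. The deposited lists give positions only: the score column is 1 for every peak, so peak height was not analysed, and a missing peak means that none passed these thresholds at that depth. Replicate numbers follow the sample labels, from which the numbers in the file headers differ.

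Peaks were joined to transcript starts of GENCODE M21 with python 3.11.15 and numpy 2.4.6. A gene's width was that of its widest peak within 3 kb of any start, or of the peak within 500 bp of the main start where so stated. Widths of genes with a peak in all 4 libraries were compared as log2 by two-sided exact permutation over libraries, adjusted by Benjamini-Hochberg over 7833 genes. The labels do not say whether libraries of a genotype came from separate animals, so p-values measure only the spread between these libraries. The join was tested on simulated peaks. The members and lists were chosen with earlier results of these data known. The text names all members, genes with starts within 1 kb of theirs, Xist, genes of each list with peaks in fewer than 4 libraries or the widest peaks, and 3 genes of like profile. Tpra1, Cops6 and Gm20388 were named after their values were seen. One result of the stem and progenitor list is not reported here.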

Additional observations from a re-analysis of the deposited data

How the results depend on the processing

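The count of 8 licensing genes with a peak in all libraries was 7 to 9 under a 1 kb or 500 bp window, peak centres in place of edges, protein-coding transcripts only, lists cut to 9553 peaks each, the peak at the main start (an alternative chosen after seeing the data, as was library scaling of the counts of wider and narrower genes) and leaving out each library, but was 5 with each list cut at its middle. The counts of 0 wider and 2 narrower genes were 0 and 1 with summed widths, where Mcm5 stayed narrower and Orc1 did not (log2 difference -0.33, exact p = 1). Leaving out a library gave 0 to 3 wider and 2 to 6 narrower genes: 5 narrower without WT replicate 1, 2 wider without WT replicate 2, 3 wider without XistΔ/Δ replicate 1 and 6 narrower without XistΔ/Δ replicate 2. The counts with changed windows, centres, transcripts, cut lists, the main start, summed widths or left-out libraries were taken for the licensing genes only. No share of all genes stands beside them. Whether the drop from 8 to 5 is particular to these genes was not tested. Each leave-out count of wider or narrower genes set 2 libraries of a genotype against 1 of the other. The widest peak was wider in replicate 2 for 92.2% (WT) and 97.7% (XistΔ/Δ) of 7833 genes, and replicate 2 was the deeper library. Whether depth shaped the leave-out counts, or whether these counts differ from the shares over all genes, was not tested. With the replicate block, 1 gene was wider and 4 were narrower, with a smallest possible exact p of 0.5. The difference in log2 width between replicates 2 and 1 correlated at 0.273 between the genotypes over 7833 genes. Replicate 2 was the deeper library in both genotypes, and same-numbered libraries share only a number. This value therefore cannot show whether they were paired. Of 64 alternatives for single genes, 51 kept the direction, among them all for Mcm5 and Orc1, and 13 turned it. The 8 with the replicate block repeat the main difference and could not turn. Summed widths and the peak at the main start also repeat it for genes with a single peak in each library. As the genotypes did not overlap for Mcm5 and Orc1, leaving out a library could not turn their direction. The count of 51 is therefore no measure of robustness. The log2 difference of Mcm2 was 0.0941 after library scaling and 0.0252 with the peak at the main start, that of Gmnn was 0.0872 after library scaling and that of Mcm7 was -0.17 with summed widths. Leaving out a library in turn gave -0.74 to 0.68 for Mcm2, -0.86 to 0.16 for Mcm3, -0.0477 to 0.80 for Mcm4, -0.70 to -0.24 for Mcm5, -1.08 to -0.18 for Orc1, -0.54 to 1.16 for Mcm7, -0.31 to 0.55 for Cdt1 and -0.26 to 0.18 for Gmnn. The direction turned without XistΔ/Δ replicate 1 (Mcm2, Mcm3 and Gmnn), XistΔ/Δ replicate 2 (Mcm7 and Cdt1), WT replicate 1 (Mcm4 and Mcm7) or WT replicate 2 (Mcm2 and Gmnn). The cause was not tested. Relative to 1e6 tags, a peak needed 0.884 and 0.951 tags in WT and XistΔ/Δ replicate 1 and 0.660 and 0.621 in replicate 2, so a missing peak in a shallow library does not show that YY1 was absent.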
